A study of Caenorhabditis elegans with 83 samples.

Results

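SET-26 sites gained in the hcf-1 mutant were chosen by peak calls, as the unique SET-26 peaks of the hcf-1(pk924) list on L4440 that shared not even 1 bp with a peak of the control list on L4440. They numbered 2300 of the 10576 unique peaks of the mutant list, and the control list held 10119. The comparison asks where SET-26 was called in animals without HCF-1 and not in their controls. The other 8276 mutant peaks, which overlapped a control peak, are called retained sites below. In the reverse direction, 1716 of the 10119 control peaks (16.96%) overlapped no mutant peak. The word gained stands for the rule alone, since all but 417 of the 2300 sites held a peak in at least 1 of 3 other SET-26 lists from animals with intact hcf-1.

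SET-26 was profiled with CUT&RUN, a method that uses an antibody to bring a nuclease to a bound protein and frees the DNA around it, in whole day 1 adult Caenorhabditis elegans. Every SET-26 strain carried the HA-tagged allele rwIs27[set-26::ha] and was profiled with an HA antibody. On L4440, the empty RNAi vector, the control was strain IU717 with the tag alone and the mutant was IU718, hcf-1(pk924) rwIs27[set-26::ha]. The same pair was also given glp-1 RNAi, which removes the germline. On OP50 bacteria, IU717 served as wild type and IU721 carried glp-1(e2141), an allele that leaves adults without a germline at the restrictive temperature. HCF-1 was profiled in IU716, with rwIs33[hcf-1::gfp::3xflag] and a FLAG antibody, and HDA-1 in IU723, with syb5185[hda-1::gfp::ha], and in IU725, which adds hcf-1(pk924). L4440 and wild type animals hold both somatic and germline cells. Each list was called on 2 merged replicates, so no value below has a replicate error, and exact Clopper-Pearson intervals at 95% are given for shares, which cover counting error only. The L4440 and RNAi lists were called against histone H3 of the same genotype, and the OP50 lists against the signal of the same antibody in untagged animals, so a fold in the former cannot be compared in size with a fold in the latter. The mutant L4440 list rested on 46.9 M factor tags and 50.4 M H3 tags and the control L4440 list on 52.5 M and 57.5 M. The part of this difference in depth in the number of gained sites was not tested.

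SET-26 is a chromatin protein with a SET and a PHD domain, and the PHD domain reads the histone mark H3K4me3, which sits at active promoters. HCF-1 is an adapter protein that joins chromatin modifiers to transcription factors, and HDA-1 is a deacetylase that takes acetyl groups off histones. All of them take part in the control of adult lifespan in the worm.

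Sequence was read in 300 bases centred on a summit, on the plus strand of WBcel235. The site upstream of the nuclear hormone receptor gene nhr-48 (X:15707485-15707824) is shown as an example of those held by all 3 other control lists. The site between C04F6.9 and the chitinase gene cht-1 (X:3400301-3400704) is the highest of those held by no control list and gained again with glp-1 RNAi. The site near Y7A5A.7 (X:15810780-15811128) is the highest of those found in no other SET-26 list. The site upstream of the collagen gene col-84, in an intron of npp-3 (II:11867074-11868750), had the highest −log10 q of all 2300. The one upstream of the F-box gene fbxa-47 (III:2234273-2234646) had the highest of those named at F-box genes whose window touched no untranslated region. The last 2 were added after their values were seen. Capitals mark GAGAGA and, for the other strand, TCTCTC in the first, and the letters CTTATC, which read GATAAG on the other strand, in the second. In the third they mark the first 52 bases of a tandem array, where 96.8% of bases matched the base 52 positions before. These 52 bases are themselves made of shorter near-identical copies, so they are not the smallest unit of the array. The last 2 held none of the 6 motifs searched.
nhr-48: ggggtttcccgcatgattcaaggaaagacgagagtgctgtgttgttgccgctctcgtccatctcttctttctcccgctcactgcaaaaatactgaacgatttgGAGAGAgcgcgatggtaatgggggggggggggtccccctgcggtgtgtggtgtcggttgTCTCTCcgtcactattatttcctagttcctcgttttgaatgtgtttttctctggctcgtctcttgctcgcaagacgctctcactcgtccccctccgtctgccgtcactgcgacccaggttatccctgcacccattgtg
cht-1: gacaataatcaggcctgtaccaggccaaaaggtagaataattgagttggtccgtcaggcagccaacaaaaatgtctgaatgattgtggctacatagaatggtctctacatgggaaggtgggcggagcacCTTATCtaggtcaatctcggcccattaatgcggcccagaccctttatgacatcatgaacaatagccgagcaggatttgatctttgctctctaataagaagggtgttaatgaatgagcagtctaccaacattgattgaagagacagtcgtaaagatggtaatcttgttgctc
near Y7A5A.7: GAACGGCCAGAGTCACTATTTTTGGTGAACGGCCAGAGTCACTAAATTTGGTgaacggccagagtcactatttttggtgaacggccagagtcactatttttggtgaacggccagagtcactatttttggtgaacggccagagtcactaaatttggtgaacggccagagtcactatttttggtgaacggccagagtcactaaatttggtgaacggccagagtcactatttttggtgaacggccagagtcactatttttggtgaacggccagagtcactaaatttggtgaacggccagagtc
col-84: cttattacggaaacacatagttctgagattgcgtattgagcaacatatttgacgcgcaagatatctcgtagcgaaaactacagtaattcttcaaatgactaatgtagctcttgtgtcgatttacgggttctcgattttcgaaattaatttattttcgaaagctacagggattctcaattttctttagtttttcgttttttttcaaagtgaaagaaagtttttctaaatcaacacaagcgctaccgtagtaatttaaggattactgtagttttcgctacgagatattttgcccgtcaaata
fbxa-47: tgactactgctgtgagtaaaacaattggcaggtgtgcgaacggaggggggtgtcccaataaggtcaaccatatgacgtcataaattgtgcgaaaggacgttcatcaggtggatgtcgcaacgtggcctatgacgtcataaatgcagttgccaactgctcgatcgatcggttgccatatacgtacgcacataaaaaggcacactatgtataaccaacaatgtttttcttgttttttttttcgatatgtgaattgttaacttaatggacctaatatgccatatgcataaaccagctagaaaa

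The printed sites differed in what surrounded them. At cht-1 and fbxa-47 the window was 44.3% and 41.7% G+C, at nhr-48 it was 55%, and at col-84 it was 34.0%. The array near Y7A5A.7 had no 31-base word that occurs once in the genome, whereas each 31-base word of the peaks at nhr-48, cht-1 and fbxa-47 was unique (100% of words) and 95.8% of those at col-84 were. Reads from an array of this kind cannot be placed at 1 copy.

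Across all members, G+C content was that of other SET-26 peaks. The median was 37.3% in gained and 37.3% in retained windows, beside 35.0% over all 300-base windows of the nuclear genome. The 182 gained sites found in the mutant glp-1 RNAi list and in no control list had a median of 42%. CpG was observed at 0.99 of its expected number in gained sites, at 1.11 in retained sites and at 0.99 in the genome. In 11.2% of gained and 9.23% of retained peaks, under 90% of the 31-base words were unique. The share was 28.3% for the gained sites in no control list and 5.19% for those in all 3.

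Of the motifs searched on both strands, GAGAGA, or on the other strand TCTCTC, was in 28.0% of gained windows (26.2 to 29.9), 34.5% of retained windows and 14.4% of all windows of the genome. It stood in 38.3% of the 394 windows gained again with glp-1 RNAi (33.5 to 43.3) and in 13.6% of the 235 windows held by no other SET-26 list (9.50 to 18.7). GATAAG, or on the other strand CTTATC, was in 13.4% of gained and 13.2% of retained windows, and in 10.7% of all. The letters CACGTG, its own complement, were in 4.83%, 5.91% and 4.90%, and GTAAACA, or on the other strand TGTTTAC, in 2.87%, 4.36% and 3.38%. TATAAA, or on the other strand TTTATA, was in 26.5%, 29.7% and 29.8%, and CTCGCG, or on the other strand CGCGAG, in 4.52%, 6.08% and 3.14%. A match of letters is a description and not a bound site.

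The gained sites were for the most part weak and narrow peaks. These values chose the members and are given as a description. The fold enrichment over H3 had a median of 1.58 (quartiles 1.46 and 1.73, range 1.06 to 9.61) in gained sites and of 2.13 in retained sites. The −log10 q-value, the strength of the peak call, had a median of 6.86 and 23.6, and the width was 294 bp and 571 bp. The fold was under 2 in 2111 gained sites (91.8%) and in 43.9% of retained sites. It was 3 or more in 24 gained sites (1.04%) and in 28.9% of retained sites. The share of mutant peaks that met the rule was 21.7% (21.0 to 22.5). The control peaks without a mutant peak were of the same kind, with a median fold of 1.55, a median −log10 q of 6.90 and a median width of 277 bp.

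Many gained sites lay beside a control peak. The gap to the nearest one had a median of 1134 bp, with quartiles of 421 and 3861.5 bp and a range of 1 to 179414 bp. It was at most 250 bp at 360 sites (15.7%), at most 1000 bp at 1072 (46.6%) and at most 5000 bp at 78.7%. The members nearest to a control peak were those at mop-25.2 (II:9703765-9703965, gap 1 bp, fold 1.64), at mut-2 (I:6359667-6359998, gap 4 bp, fold 1.84) and at lim-9 (I:9221862-9222333, gap 4 bp, fold 1.58). Just outside the rule stood the mutant peaks with the smallest control overlap, in an intron of lem-3 (1 bp, fold 1.38), in an intron of mrpl-20 (4 bp, fold 1.82) and at yop-1 (5 bp, fold 1.65). The folds on both sides of the rule overlapped.

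Other SET-26 profiles held a peak at many of these places. The wild type list on OP50 held 1561 of the 2300 gained sites (67.9%, 65.9 to 69.8), beside 91.3% of all mutant peaks and 97.8% of retained sites. The control list with glp-1 RNAi held 1287 (56.0%, 53.9 to 58.0), beside 84.9% of all and 92.9% of retained sites. The glp-1(e2141) list held 1100 (47.8%, 45.8 to 49.9), beside 76.1% of all and 84.0% of retained sites. Thus the gained sites were held less often than retained sites by each of the 3, with intervals that did not meet. Among peaks with a −log10 q under 5, the control with glp-1 RNAi held 54.3% of gained and 78.0% of retained sites, and wild type 65.7% and 90.7%. The lists differ in depth, at 39.7 M factor tags for wild type, 38.4 M for control with glp-1 RNAi and 59.3 M for glp-1(e2141), whose part was not tested.

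The hcf-1 mutant with glp-1 RNAi, the other profile without HCF-1, held 1267 of the gained sites (55.1%, 53.0 to 57.1), beside 77.8% of all mutant peaks and 84.1% of retained sites. It held 520 of the 1716 control peaks without a mutant peak (30.3%, 28.1 to 32.5), while the control with glp-1 RNAi held 65.2% of those. A site was gained again if its mutant glp-1 RNAi peak overlapped no peak of the control with glp-1 RNAi. This was so at 394 sites (17.1%, 15.6 to 18.7), beside 5.52% of all mutant peaks and 2.30% of retained sites. The 394 were 33.2% of the 1186 mutant glp-1 RNAi peaks that lacked a control partner. In whole animals, a site bound in fewer cells and a site bound less in each cell cannot be told apart.

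The strongest gained sites were held by the other mutant list more than by the control lists. The rule chose sites called in a mutant and not in a control list, so this order is a description too. Among the 176 gained sites with a −log10 q of 20 or more, 152 were in the mutant glp-1 RNAi list (86.4%, 80.4 to 91.1), below the 96.0% of the 4477 retained sites of that strength (95.4 to 96.6). The control glp-1 RNAi list held 64 of them (36.4%, 29.3 to 43.9, retained 97.9%), wild type 97 (55.1%, retained 99.7%) and glp-1(e2141) 47 (26.7%, retained 93.5%). Sites gained again with glp-1 RNAi made up 91 of the 176 (51.7%, 44.1 to 59.3) and 2.23% of the retained sites of that strength. Among the 682 gained sites with a −log10 q under 5, 61 were gained again (8.94%, 6.91 to 11.3).

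**Figure D1:**
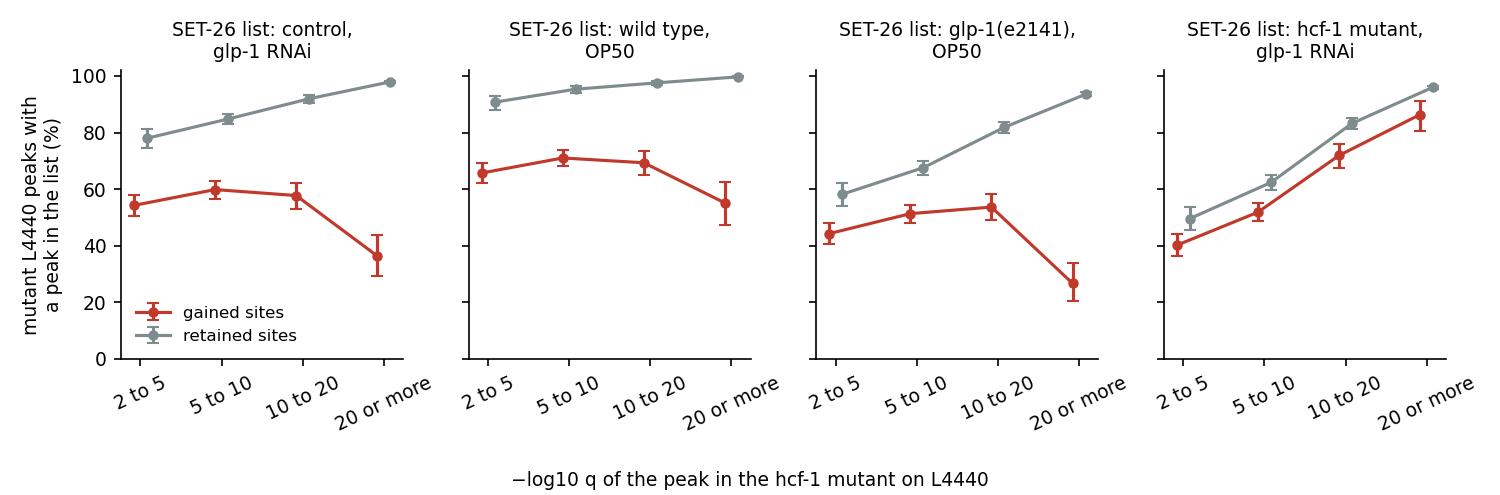
The share of mutant L4440 peaks with a peak in each of 4 other SET-26 lists is plotted against the −log10 q of the peak, for gained (red) and retained (grey) sites with exact 95% intervals. In the highest band the gained share falls to 36.4%, 55.1% and 26.7% in the 3 control lists and reaches 86.4% in the mutant glp-1 RNAi list.

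As a description across sites, which share libraries and depth, Spearman's rho between the fold on L4440 and the fold in the mutant with glp-1 RNAi was 0.41 over 1267 sites, and 0.58 over the 152 with a −log10 q of 20 or more. It was 0.07 over the 1287 sites in the control glp-1 RNAi list. Over retained sites rho was 0.80 and 0.62. The rule left out sites with a control peak and with them most high folds, and this narrows the range over which rho was taken. The median fold of the gained sites was 1.71 in the mutant with glp-1 RNAi and 1.92 in the control with glp-1 RNAi. In part these control folds belonged to wide peaks. At 234 of the 1287 sites (18.2%) the glp-1 RNAi control peak also reached over a peak of the L4440 control list, and its median fold was 2.67, against 1.84 and at most 4.11 at the other 1053. In wild type the same held at 384 of 1561 sites (24.6%), and in the mutant with glp-1 RNAi at 96 of 1267 (7.58%).

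**Figure D2:**
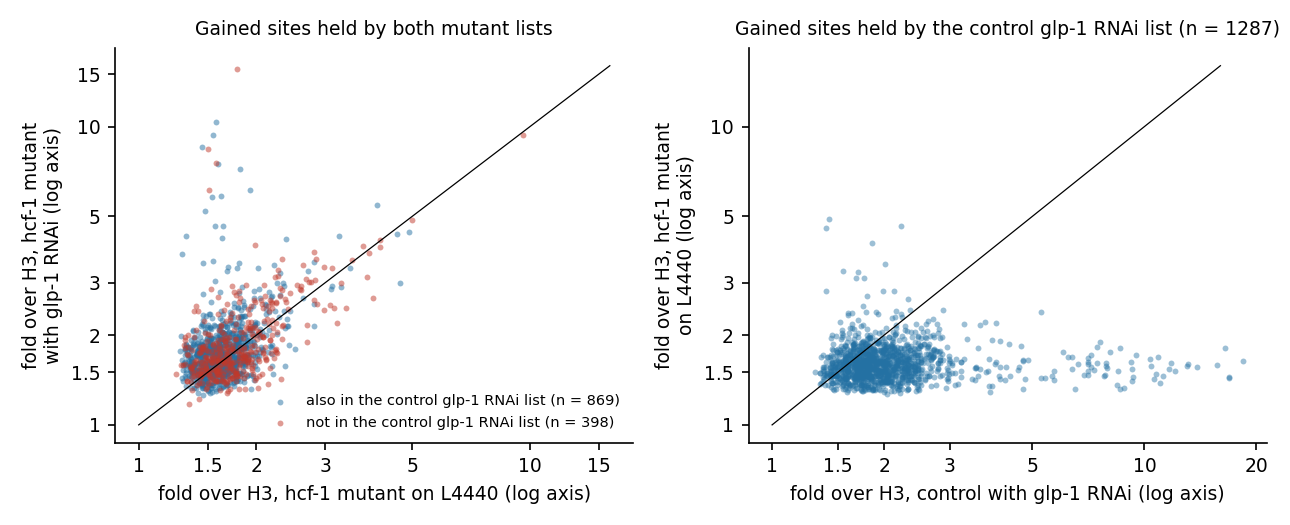
Both panels plot fold over H3 on log axes with the line of equality, each point 1 gained site. On the left, folds of the mutant on L4440 and with glp-1 RNAi are shown for the 1267 sites of both lists, and on the right the control with glp-1 RNAi is set against the mutant on L4440 for 1287 sites. The sites of high mutant fold lie near the line on the left and above it on the right, where control folds reach 18.4 at sites of low mutant fold.

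Distance from a control peak went with which lists held a site. Of the 1072 gained sites within 1000 bp of a control peak, wild type held 80.0% and the mutant with glp-1 RNAi 46.2%. Of the 489 sites more than 5000 bp away, wild type held 42.5% (38.1 to 47.1) and the mutant with glp-1 RNAi 71.8% (67.6 to 75.7). No control list held 10.4% of the near and 36.6% of the far sites (32.3 to 41.0), and 8.96% and 33.5% were gained again with glp-1 RNAi. The median fold was 1.55 near and 1.66 far from a control peak.

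In all, 417 gained sites (18.1%, 16.6 to 19.8) were in no control list, beside 4.37% of all mutant peaks and 0.544% of retained sites. The mutant glp-1 RNAi list held 182 of the 417, and 235 were in no other SET-26 list. A further 569 sites were in 1 control list, 563 in 2 and 751 in all 3, and 576 of the 751 were also in the mutant glp-1 RNAi list. The 179 sites gained on L4440 and with glp-1 RNAi and in no control list had a median fold of 1.71 and a median −log10 q of 12.5. The 235 sites found once had 1.5 and 5.87, and 74 of them (31.5%) had under 90% unique words.

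By size, 24 gained sites had a fold of 3 or more. The mutant with glp-1 RNAi held 24 of the 24, with folds of 2.20 to 9.35 and a median of 3.36, beside a median of 3.63 on L4440. Wild type held 20, the control with glp-1 RNAi 9 and glp-1(e2141) 3. The folds ran from 1.39 to 2.21 at the 9 sites in the control with glp-1 RNAi, from 1.39 to 3.38 at the 20 in wild type and from 1.60 to 3.17 at the 3 in glp-1(e2141). The sites were selected on the fold of the mutant on L4440, so its size against these lists is no finding.

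The highest site (II:11867074-11868750) lay upstream of the cuticle collagen gene col-84, in an intron of the nucleoporin gene npp-3. Its fold was 9.61 in the mutant on L4440 and 9.35 with glp-1 RNAi, it was 1.96 in wild type, and neither the control with glp-1 RNAi nor glp-1(e2141) had a peak there. HDA-1 had a fold of 3.13 there in the hcf-1 mutant and no peak in its control. A second site on the same chromosome, near ZK930.2 (II:11890251-11891014), had folds of 4.91 and 4.43 in the mutant on L4440 and with glp-1 RNAi, 1.42 in the control with glp-1 RNAi and 2.79 in wild type. At sfxn-1.4, which encodes a sideroflexin, the peak (II:11681328-11682068) had folds of 3.97 and 2.67, with 1.56 in wild type.

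Other strong sites lay at single genes of varied roles. At inx-2, a gap junction innexin, the peak lay upstream of the start (X:11296900-11297418) with folds of 4.98 and 4.87 in the mutant, and 2.19 in wild type. At ceh-43, a Distal-less homeobox gene, the site (III:4450686-4451468) had folds of 4.06 and 5.48 in the mutant, beside 1.86 in the control with glp-1 RNAi and 2.09 in wild type. In an intron of nhr-2, a nuclear hormone receptor, the site (I:5820298-5820806) had 3.88 and 3.77 in the mutant and 3.38 in wild type. Wild type was called against another background, so its values are given beside these and not ranked with them. At zip-8, a bZIP factor, the peak (III:6478541-6479025) had 3.83 and 3.14 in the mutant and 1.94 in wild type. In an intron of rnr-1, the large subunit of ribonucleotide reductase, the values were 3.28, 2.99 and 1.39. In an intron of ptp-3, a LAR-type receptor phosphatase, they were 3.13, 3.36 and 2.47.

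A few strong sites were in no control list at all. The site upstream of the chitinase gene cht-1 (X:3400301-3400704, printed above) had a fold of 4.14 on L4440 and 3.96 with glp-1 RNAi in the mutant, and the nearest control peak was 10892 bp away. The site at C08F1.10 and fbxb-13 (II:1786159-1786594) had 3.21 and 2.20, that at fbxb-15 and btb-12 (II:1653374-1653776) had 3.16 and 2.47, and that in an intron of eya-1, an eyes absent homolog (I:14226242-14226542), had 3.08 and 2.53. At each of the 4 the 2 mutant lists were the only SET-26 lists with a peak. At fbxa-47 (III:2234273-2234646) the mutant folds were 2.84 and 3.6, and no SET-26 control list had a peak. HCF-1 had a fold of 12.8 there in its own control on L4440, but no peak in wild type on OP50.

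Some of the highest −log10 q-values came from repeats. Of the 16 gained sites with a pileup of 1000 or more fragments, 15 had under 90% unique 31-base words and 13 were in no other SET-26 list. The array near Y7A5A.7 had a pileup of 6856, a −log10 q of 530 and a fold of only 1.94. A site near dnc-6 (I:3171681-3171890) had 5637, 512 and 2.07, with 3.33% of its words unique. One near nhr-5 (IV:15409420-15409629) had 2441, 137 and 1.74, with 17.2% unique. The high rank of these named sites came with high pileups, and their folds of 1.74 to 2.07 stood beside an upper quartile of 1.73 for gained sites. Across the 16 sites the folds ran from 1.06 to 9.61. Some sites of higher fold and lower pileup lay in repeats too. The site near VH15N14R.1 (I:7778194-7778678) had a fold of 4.14, a pileup of 435 and no unique word. One in VH15N14R.1 (I:7783278-7783773) had 3.26, 387 and no unique word.

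The gene chd-7, which encodes a CHD7-type chromatin remodeller, held 10 gained summits and no retained one over 12.711 kb. The wide peak in its intron (I:4695507-4697309) had a fold of 4.65 in the mutant on L4440, 2.98 with glp-1 RNAi, 2.21 in the control with glp-1 RNAi, 2.43 in wild type and 1.86 in glp-1(e2141). A second one (I:4692275-4694401), the widest of all gained sites, had 2.80, 2.54, 1.98, 2.05 and 1.88. Both were therefore in every SET-26 list but that of the control on L4440, and 7 of the 10 were gained again with glp-1 RNAi. Across the genome, 721 gained sites (31.3%) had another within 1000 bp and 59.0% had one within 5000 bp. No such share was taken for retained sites, so whether gained sites lie closer together than other peaks was not tested.

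The genes with most gained summits were Y32H12A.8, with 11 over 20.549 kb, chd-7, and F10G7.10 and F55F10.1, with 9 each over 12.592 and 25.695 kb. A few others of known role are given here, picked after the counts were seen. The corepressor gene gei-8 (10.065 kb) held 6 and no retained one, with folds of 1.43 to 2.09, and the dosage compensation genes dpy-28 (13.946 kb) and sdc-3 (9.06 kb) held 6 each with none retained. Their lists differed, since 5 of the 6 at dpy-28 were in all 3 control lists and 0 of the 6 at sdc-3 were, where 4 were in none and 5 were gained again. The corepressor gene din-1 (18.84 kb) held 8 beside 5 retained and the FOXO factor gene daf-16 (26.206 kb) held 5 beside 4 retained.

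By place, gained sites sat inside genes more than retained sites. The summit was in a coding exon at 32.1% of gained and 22.1% of retained sites (24.6% of the genome), in an intron at 33.6% and 25.5% (33.3%), and between genes at 23.8% and 38.1% (33.3%). Untranslated regions held 8.43% and 11.3%. The distance from the summit to the nearest start of a protein-coding gene had a median of 1729.5 bp for gained and 809.5 bp for retained sites, and 19.6% and 40.3% were within 500 bp. A promoter window, which reached 2000 bp up and 500 bp down from a start, held 941 gained sites (40.9%, 38.9 to 43.0), beside 61.9% of all mutant peaks and 67.7% of retained sites. The 176 gained sites with a −log10 q of 20 or more were another picture, with 58.0% between genes (50.3 to 65.3) and 61.4% in a promoter window, where 78.0% of retained sites of that strength lay.

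Gained sites were found on all 6 nuclear chromosomes and lay further out along them than retained sites. Chromosome I held 574, II 442, III 475, IV 381, V 271 and X 157, or from 38.1 per Mb on I to 8.86 per Mb on X. Of each chromosome's mutant peaks, the gained share ran from 19.8% on V (17.7 to 22.01) to 26.3% on X (22.8 to 29.98). With each chromosome split into 3 equal parts, 59.96% of gained summits (57.9 to 61.97) and 49.6% of retained summits (48.5 to 50.6) were in the outer parts. The share was 53.1% for gained sites in all 3 control lists and 73.4% (68.9 to 77.6) for those in none, and it was 75.8% for the 182 of these in the mutant glp-1 RNAi list. On X it was 65.6% for gained and 68.0% for retained sites, so there the order was not seen.

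**Figure D3:**
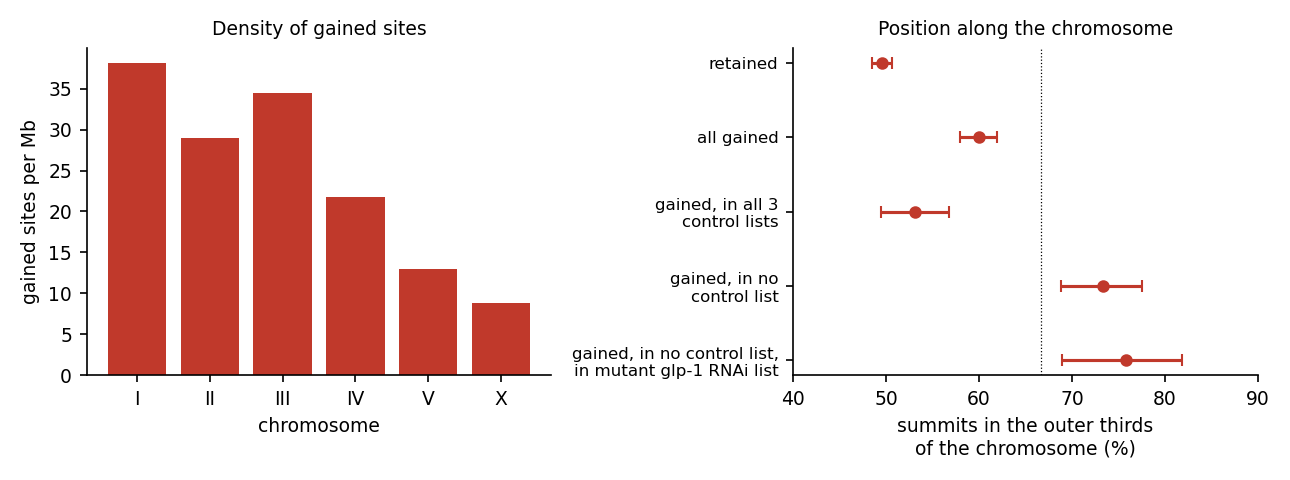
Left, gained sites per Mb of each chromosome, from 38.1 on I to 8.86 on X. Right, the share of summits in the outer parts of the chromosome with exact 95% intervals, where the dotted line marks the share of an even spread. The share is 49.6% for retained sites, 59.96% for gained sites and 73.4% for gained sites in no control list.

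HCF-1 and HDA-1 were found at a smaller share of gained than of retained sites, and for both the gap was widest among the strongest peaks. HCF-1 of control animals on L4440 held 5.17% of gained sites (4.30 to 6.16), beside 42.2% of all mutant peaks and 52.5% of retained sites. HCF-1 of wild type held 11.1% of gained sites, beside 50.2% of all mutant peaks. At retained sites with a −log10 q of 20 or more HCF-1 was at 76.1%, while at gained sites of that strength it was at 9 of 176 (5.11%, 2.36 to 9.49). HDA-1 held 391 gained sites in control animals on L4440 (17%, 15.5 to 18.6), beside 38.7% of all mutant peaks, and 363 in wild type (15.8%), beside 37.8%. In the hcf-1 mutant it held 371 (16.1%, 14.6 to 17.7), beside 35.7% of all. At a −log10 q of 5 to 10, HDA-1 of control animals on L4440 was at 16.6% of gained and 19.6% of retained sites. At 20 or more it was at 26.1% and 62.2%. Either factor was at 450 gained sites (19.6%), beside 53.7% of all mutant peaks.

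HDA-1 had a peak in both control and hcf-1 mutant at 313, in the control alone at 78, in the mutant alone at 58 and in neither at 1851 (80.5%). At retained sites these numbers were 3254, 446, 153 and 4423 (53.4%). Where neither genotype had a peak, a change in HDA-1 could not be seen. Beside col-84, the sites where it was called in the mutant alone included one at fmo-5, a flavin monooxygenase gene (V:901931-903206), with HDA-1 at 4.07 and SET-26 at 1.99, and one at ftn-2, a ferritin gene (I:3682431-3683305), with HDA-1 at 2.15 and SET-26 at 1.95. Gained sites far from control peaks carried HDA-1 more, at 185 of the 489 beyond 5000 bp (37.8%, 33.5 to 42.3) and at 7.93% of those within 1000 bp. Examples with HDA-1 in both genotypes were nhr-48, with HDA-1 at 6.42 and 7.01, and the muscle gene unc-89, which encodes obscurin, with 3.46 and 2.88.

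A gained promoter peak was found at 987 of 19985 protein-coding genes (4.94%, 4.64 to 5.25). Of these, 442 (44.8%) also had a control peak in the same window and 545 did not. Among the 545, the control with glp-1 RNAi had a promoter peak at 301, wild type had one at 268, and 142 (26.1%) had none in any control list. More than 1 gained site was assigned to 107 genes.

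Of 24 gene lists drawn up with earlier results of these data known, 16 held 50 genes or more. Of these 16 the histone genes stood furthest above the 4.94%, with a gained promoter peak at 34 of 72 gene entries (47.2%, 35.3 to 59.3). F-box genes, whose proteins bring substrates to ubiquitin ligases, followed with 40 of 322 (12.4%, 9.02 to 16.5), and 35 of the 40 had no control promoter peak. Nuclear hormone receptors had 19 of 269 (7.06%, 4.31 to 10.8), which spans the share of all genes. Lists far below it were the chemoreceptors, with 11 of 1371 (0.802%, 0.401 to 1.43), the neuropeptides and insulins, with 1 of 140, and the C-type lectins, with 4 of 240 (1.67%). These lists were also low in control promoter peaks, at 3.43%, 7.14% and 6.67% of their genes beside 33.2% of all genes, so their low share is not particular to gained sites. The cytosolic ribosome had 3 of 81 and the 16 genes of SET-26 and HCF-1 partners and H3K4 methylation had 0, and control promoter peaks stood at 78 of the 81 and 16 of the 16.

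**Figure D4:**
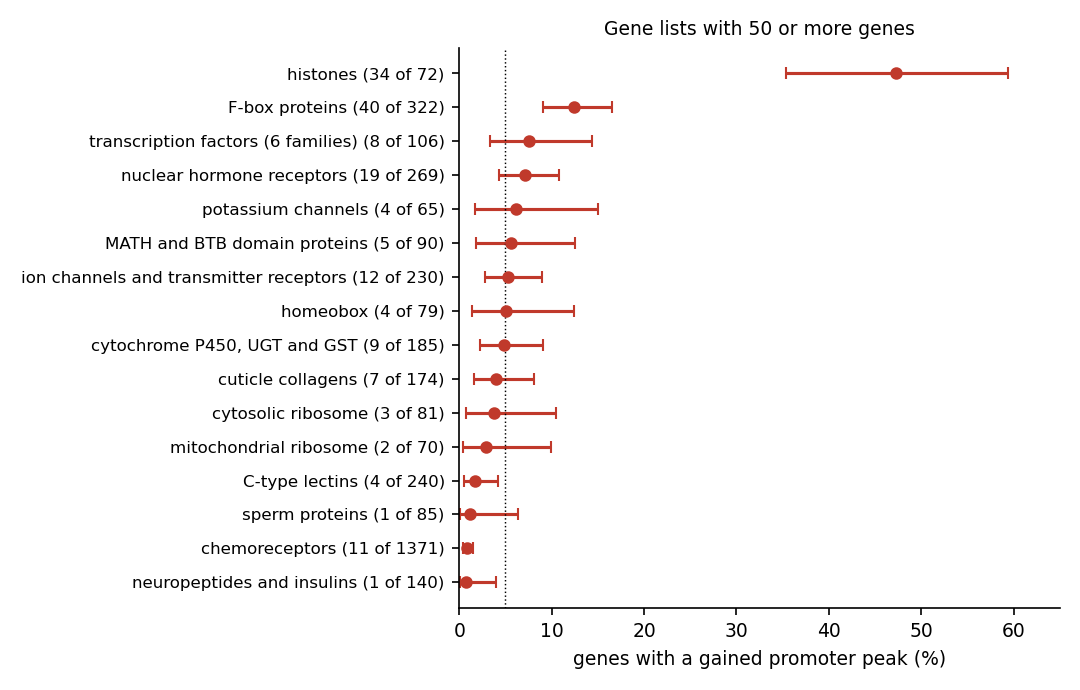
The share of genes with a gained promoter peak is shown for the gene lists with 50 genes or more, with exact 95% intervals. The dotted line marks the 4.94% of all protein-coding genes. Histones (47.2%) and F-box proteins (12.4%) are the lists whose intervals lie above it, and chemoreceptors (0.802%), C-type lectins (1.67%) and neuropeptides (0.714%) those that lie below.

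The histone sites were few, alike and hard to place. The 34 gene entries, several of which share a name because they are near-identical copies, rested on 18 gained sites, 12 on chromosome V, 3 on IV and 3 on II. Under 90% of words were unique in 17 of the 18 and no word was unique in 12, so which copy carried the reads is uncertain. The fold was 1.42 to 2.15 on L4440 (median 1.83) and 1.65 to 2.92 with glp-1 RNAi (median 1.99). The mutant glp-1 RNAi list held 18 of 18 and the control with glp-1 RNAi and glp-1(e2141) held 0, so 18 of 18 were gained again. Wild type held 11. HDA-1 was called at 14 in the control and 10 in the mutant, and HCF-1 at 4 in the control. The best placed of them, with 94.7% unique words, was between his-31 and his-32 (IV:8333951-8334282), with 1.81 and 2.82 in the mutant and 1.61 in wild type. Another 19 histone sites were retained, at a median fold of 2.70. Of these, 13 had under 90% unique words and 7 overlapped a mutant glp-1 RNAi peak that lacked a control partner.

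The F-box sites held more unique sequence than the histone sites. The 40 genes rested on 37 gained sites, of which 8 had under 90% unique words, 19 were on chromosome II and 35 were in the outer parts of a chromosome. Of the 39 retained F-box sites 8 had under 90% unique words and 38 were in the outer parts, so both features were shared by F-box sites of either kind. Folds ran from 1.28 to 3.21 on L4440 with a median of 1.81. The mutant with glp-1 RNAi held 28 of the 37, at a median of 1.80, and 25 were gained again. The 3 control lists held 6 each, and 27 sites were in none of them. Of the retained F-box sites the control with glp-1 RNAi held 30 and wild type 37. In control animals on L4440, HCF-1 was at 1 gained F-box site, that of fbxa-47, and HDA-1 at 4. The sites on II formed runs, such as fbxb-26, fbxb-25 and fbxb-19 at II:1682428-1689501 with folds of 1.81, 1.96 and 2.08.

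**Figure D5:**
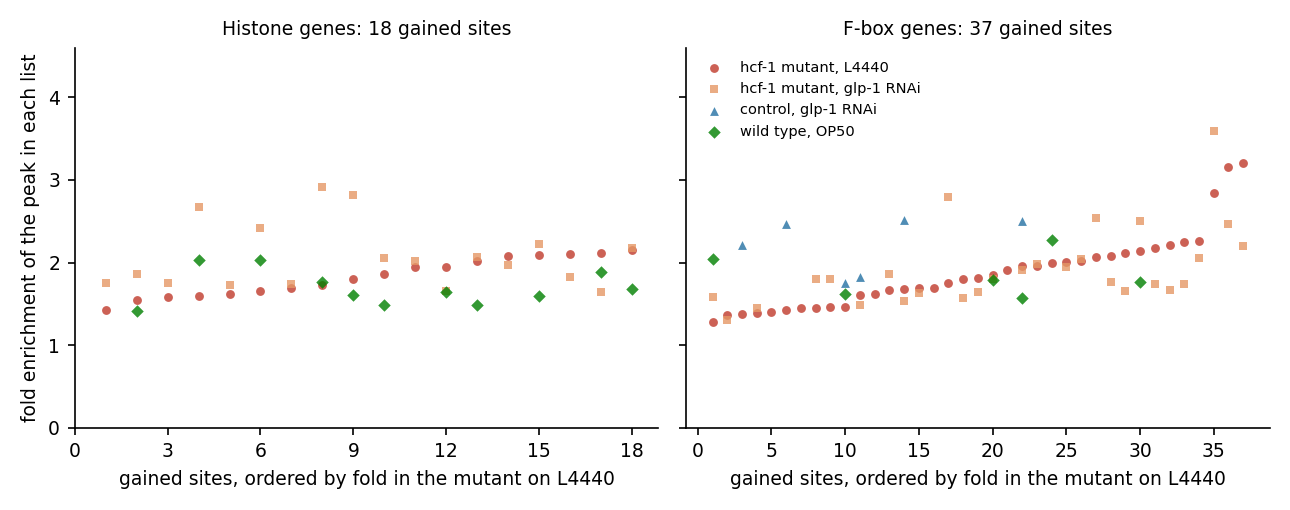
The fold of each peak in 4 SET-26 lists is plotted for the 18 gained histone sites and the 37 gained F-box sites, ordered by fold in the mutant on L4440, and a missing symbol means that the list had no peak. No histone site has a symbol for the control with glp-1 RNAi, and most F-box sites have symbols for the mutant lists alone.

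Related families gave small numbers, and the next 2 were looked up after the F-box values were seen. The skr genes encode Skp1-like adapters that bind F-box proteins, and 3 of 20 had a gained promoter peak, at 2 sites. At skr-21 (X:13226788-13227095) the folds were 2.23 and 1.79 in the mutant on L4440 and with glp-1 RNAi and at skr-14 and skr-7 (V:4421749-4422123) they were 1.98 and 1.76. Both sites were in no control list. The sdz genes, named as SKN-1-dependent zygotic transcripts of the embryo, had 7 of 33, and their 7 sites were gained again in 7 cases and in no control list. At sdz-28 (II:2130603-2131015) the folds were 2.60 and 2.82. The 2 sites at sdz-25 had no unique word.

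Among MATH and BTB domain genes, which encode substrate adapters of another ligase, 5 of 90 had a gained promoter peak (5.56%, 1.83 to 12.5), near the share of all genes. At btb-6 (II:1714909-1715238) the folds were 2.33 and 1.94 and at bath-9 (II:3376712-3377056) they were 2.07 and 2.47, and neither was in a control list. Cuticle collagens had 7 of 174. Besides col-84, dpy-9 (IV:259708-260028) had a fold of 1.73 in the mutant and 2.23 in the control with glp-1 RNAi, and col-132 (IV:13090956-13091311) had 1.70 and a wild type peak of 1.89.

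Regulatory genes were spread over all patterns. The homeobox list had 4 of 79 and the list of bHLH, GATA, forkhead, T-box and zinc finger factors 8 of 106. At ztf-11, a zinc finger factor of neurogenesis (I:9910539-9910888), the folds were 2.85 and 2.54 in the mutant and 1.80 in wild type. At zip-12 (III:12327711-12327996) a fold of 2.18 in the mutant on L4440 stood beside 2.44 in the control with glp-1 RNAi and 3.74 in glp-1(e2141). At nhr-48, printed above, 2.26 stood beside 2.70 and 2.4. At both, the control with glp-1 RNAi had a higher fold than the mutant on L4440. The medians over all 1287 gained sites in that control list had the same order, at 1.92 and 1.59, so it is not particular to these genes. Of 39 signalling genes 4 had one, namely apx-1, mek-2, mom-5 and pop-1. At apx-1, a Delta-like Notch ligand (V:3209150-3209498), the folds were 2.18 and 2.57 in the mutant and no SET-26 control list had a peak, and at mom-5, a Frizzled receptor (I:9965327-9965640), 1.73 stood beside 1.83 in the control with glp-1 RNAi and 2.19 in wild type.

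Genes typical of single tissues had few gained sites in number, and with lists of 5 to 30 genes their shares could not be set apart from the 4.94% of all genes. Of the markers, 1 of 5 for body muscle (unc-89) and 1 of 6 for neurons (rgef-1) had one, and none of 10 for the germline, 7 for the intestine or 5 for the epidermis. At unc-89 the mutant fold was 1.74 on L4440 and 1.70 with glp-1 RNAi, beside 1.75 in the control with glp-1 RNAi, 1.97 in wild type and 1.87 in glp-1(e2141). At rgef-1, a neuronal Ras exchange factor, it was 1.71 and 1.96, beside 2.45, 1.85 and 2.98. At unc-47, the vesicular GABA transporter, it was 1.68 and 2.12, beside 2.63, 2.24 and 3.56. Both neuronal sites were higher in the control with glp-1 RNAi than in the mutant on L4440, as was the median of all gained sites in that control list. The intestinal genes act-5 and vit-6 had 1.63 and 1.46, and both had HDA-1 in both genotypes, at 1.65 and 1.40 for act-5 and at 5.79 and 3.80 for vit-6. The site assigned to the germline gene fbf-2 lay in a coding exon of tpp-2 (II:6093289-6093692) with a fold of 1.41, and a wild type peak of 9.76 covered it.

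Channels, receptors and detoxification enzymes were near the share of all genes. Ion channels and transmitter receptors had 12 of 230 (5.22%), among them unc-29, an acetylcholine receptor subunit (I:8902509-8902855), at 1.85 in the mutant and 2.29 in the control with glp-1 RNAi, and unc-103, an ERG-type potassium channel (III:4113671-4113896), at 1.58 and 2.38. Cytochrome P450, UGT and GST genes had 9 of 185 (4.86%), with ugt-61 (V:4742204-4742555) at 1.87 and 1.99. Each of the 3 was held by the control with glp-1 RNAi at a fold above that of the mutant on L4440, the order also of the medians of all gained sites in that list. The chemoreceptor with the highest gained peak was str-171 (V:15132955-15133326), at 2.39, which no other SET-26 list held. Among the lectins clec-266 (X:6622777-6623102) had 2.09 and 2.94 in the mutant and no control peak.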

How the data were processed

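The samples used were SET-26, HCF-1 and HDA-1 CUT&RUN libraries of day 1 adults, grouped by their labels. The submitters' processing notes name Trim Galore 0.6.5, Bowtie2 2.4.3, SAMtools, MACS2 2.1.4, deepTools 3.3 and the build ce11 (WBcel235). The authors merged 2 replicates per list, and the deposited headers give a q-value cutoff of 0.01 and fragments of 200 bp. Duplicate reads were kept, so a pileup can include them, and the deeper library of each pair was scaled down. The deposited fold is the authors' ratio of summit pileup to local background, the deposited −log10 q-value is that of their Poisson test, and the deposited signal is the pileup at the summit. Narrow peak copies held the same peaks in 11 of 11 lists used. They were used as given.

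Entries with 1 start and end were counted as 1 peak with the values of its summit of highest −log10 q. A list held a site if any of its peaks overlapped it by 1 bp. A control list was any of SET-26 in control with glp-1 RNAi, in wild type or in glp-1(e2141). Gene models came from Ensembl release 115, with 19985 that code for protein. A promoter peak overlapped the stretch that reaches 2000 bp up and 500 bp down from a start, and on each strand the gene with the nearest start was taken. Sequence was read from the RefSeq genome of WBcel235, printed windows touched no untranslated region, and uniqueness was the share of 31-base words that occur once in it on either strand. Named sites were the 12 of highest −log10 q, the 5 highest in no control list, the 5 highest of these gained again, the 3 widest, the 3 nearest a control peak with the 3 mutant peaks of smallest control overlap, the 2 highest on each chromosome and up to 3 for each gene list. Other sites, among them those at sfxn-1.4, rnr-1, ptp-3, fmo-5, ftn-2 and his-31, were named after their values were seen. Scripts were tested on simulated peaks. Members and lists were chosen with earlier results of these data known. Python 3.11.15, pandas 2.3.3 and scipy 1.17.1 were used. Depth, in tags per merged list, is given in the report, and intervals cover counting error only. Alternatives for overlap, strength and unique sequence are given in the closing section.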

Additional observations from a re-analysis of the deposited data

How the results depend on the processing

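The rule and 9 shares were recomputed under 5 alternatives. A share counted as unmoved if it stayed inside its counting interval, and the number of sites if it stayed within a set ratio of 2300. By these limits 31 of 50 values were unmoved. The number of sites was 2578 with an overlap of 50% of the smaller peak and 1940 with a margin of 250 bp. It was 1618 with a −log10 q of 5 or more and 2043 with 90% unique words. With fold 3 or more, 24 sites met the rule, of which the control with glp-1 RNAi held 37.5%, the mutant with glp-1 RNAi 100%, wild type 83.3% and glp-1(e2141) 12.5%. Of these 24, 62.5% were in a promoter window, 16.7% had HCF-1 or HDA-1, 37.5% were gained again with glp-1 RNAi at a fold of 3 or more there too (15 of the 24 at any fold), and 12.5% were on X. With 90% unique words, the control with glp-1 RNAi held 59.4%, wild type 70.5%, glp-1(e2141) 51.0% and no control list 14.6%. With a −log10 q of 5 or more, the mutant with glp-1 RNAi held 61.4%, and 22% had HCF-1 or HDA-1. With a control overlap of 50% of the smaller peak, wild type held 70.6% and no control list 16.4%, and with a margin of 250 bp these were 64.9% and 19.8%. No paired analysis was possible because each list was called on merged replicates, and for the same reason no replicate could be left out. Peak calls, not read counts, were compared, so a site just under the call threshold in a control list counts as absent there.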
